A study of Mus musculus with 27 samples.

Results

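The natriuretic peptide system of the mouse heart was followed here through 6 genes: the ligands Nppa and Nppb, the protease gene Corin, and the receptor genes Npr1, Npr2 and Npr3. The genes were taken by name as members of this system, with earlier results of these data known. All 6 had a row among the 24025 genes of the bulk table and among the 19010 gene symbols of the single-cell table. The series examined hearts of C57BL/6 mice in which Hand2as, the long non-coding RNA gene beside Hand2 that is also called Hand2os1 or Uph, carried 1 of 2 deletions. By the series' design text, allele F is a full-length deletion and allele D a deletion of the distal 3' portion.

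In bulk, polyA RNA was sequenced from 25 libraries in 7 groups. E11.5 hearts were F/+ (n = 3) or F/F (n = 3), E16.5 ventricles were F/+ (n = 3) or F/F (n = 3), and cardiomyocytes of 8-week mice were +/+ (n = 5), D/+ (n = 2) or D/D (n = 6). The embryonic controls therefore carried 1 F allele themselves, and embryonic stage, tissue and isolated cells changed together. The labels do not say whether the libraries of a group came from separate animals, so p-values measure the spread between libraries, which may be technical. In single cells, 1 +/+ and 1 F/F library of live sorted E11.5 heart cells were made, each from the pooled cells of 6 hearts.

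Nppa and Nppb encode the precursors of atrial and brain natriuretic peptide, hormones of the working heart muscle that lower blood pressure and blood volume. Both genes are expressed in the embryonic chambers, and in the adult ventricle they are widely used as markers of wall stress. Corin is a membrane protease of cardiomyocytes that cleaves the atrial peptide precursor. Npr1 is the cGMP-producing receptor of both peptides, Npr2 is the cGMP-producing receptor of the C-type peptide, and Npr3 is the clearance receptor that binds and removes all of them.

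Nppa and Nppb lie next to each other on mouse chromosome 4, in the same direction. In the RefSeq annotation of GRCm38.p6 the Nppb gene spans 147985786 to 147987205 and the Nppa gene 148000722 to 148002074, with 13516 bases from the end of Nppb to the start of Nppa. This is not the mm9 build named for the bulk data, so the coordinates serve for orientation only. The bases before each gene are shown because the levels of the neighbours diverged between stages, as described further on. Capitals mark letters searched on both strands: GATAA, the core of a GATA factor site, TCACAC, a T-box core, AAGTG, the core of an NKX2-type site, CATTCC, the M-CAT element bound by TEAD factors, and TATAAA, the TATA box. The searched window was the 250 bases before the start that the RefSeq promoter table gives. That start lies inside the gene span of Nppb, so 114 bases of its window belong to the annotated gene and only the 136 bases before the span are printed.
Nppa, chr4:148000472-148000721, plus strand: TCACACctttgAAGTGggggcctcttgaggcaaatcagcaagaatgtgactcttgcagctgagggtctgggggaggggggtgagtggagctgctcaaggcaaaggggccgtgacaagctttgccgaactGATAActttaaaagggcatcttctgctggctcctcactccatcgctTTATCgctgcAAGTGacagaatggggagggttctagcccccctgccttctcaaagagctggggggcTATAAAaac
Nppb, chr4:147985650-147985785, plus strand: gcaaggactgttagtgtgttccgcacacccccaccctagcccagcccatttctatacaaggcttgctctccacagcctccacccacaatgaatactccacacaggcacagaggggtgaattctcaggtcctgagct

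Both peptide windows held 2 GATAA matches and 1 TATAAA match. In Nppa the GATAA matches covered bases -121 to -117 and, on the minus strand, -75 to -71, counted from the start, and in Nppb -94 to -90 and -83 to -79. The T-box core (bases -250 to -245) and 2 AAGTG matches were found in Nppa and not in Nppb. The M-CAT letters (bases -105 to -100, minus strand) were found in Nppb and not in Nppa. All 4 Nppb matches lay in the 114 bases inside the annotated gene, so the printed stretch of Nppb has no capitals. These words are common: of 32851 RefSeq promoter windows of the same length, 22.58% held GATAA, 12.29% TCACAC, 40.71% AAGTG, 12.64% CATTCC and 12.37% TATAAA. No match of the 5 words overlapped another in these windows. The windows of Npr1, Npr2, Npr3 and Corin held 0 matches, which says only that these letters are not in those 250 bases. Those of Npr2 and Npr3 lay inside the gene span in full, and that of Npr1 in part. A match is a description of the letters and not of binding.

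The bulk values are FPKM, fragment numbers scaled to transcript length and to library size, so levels can be set side by side between genes, but no read depth comes with them. The deposited FPKM of a library summed to between 334193.7 and 586794.5, and 9495 to 11641 genes reached 1 FPKM. The deleted gene is listed as LOC102636514, which RefSeq names Hand2os1. Its E11.5 value was 0 in each of the 6 hearts, where it therefore checks no label. At E16.5 it read 0.37 to 1.4 FPKM in F/+ and was listed at 0 in all 3 F/F libraries. At 8 weeks it read 6.9 to 13.48 FPKM in 4 of the 5 +/+ libraries, 5.25 and 6.17 in D/+, and 0 to 2.67 in D/D. The fifth +/+ library gave 0 FPKM. That contradicts its label, and it is called the library labelled +/+ replicate 5 below. That library and D/D replicate 6 also stood apart from the other 11 cardiomyocyte libraries in a clustering of all genes. Haemoglobin genes took 10.37 to 29.72% of the FPKM at E11.5, 0.651 to 2.419% at E16.5 and at most 0.06% at 8 weeks. Y-linked genes reached 1 FPKM in 1 of 3 F/+ and 2 of 3 F/F hearts at E11.5. At E16.5 they did so in 1 of 3 F/+ and 3 of 3 F/F ventricles. At 8 weeks they did so in 3 of 5 +/+, 0 of 2 D/+ and 4 of 6 D/D libraries. Sex and genotype were therefore not fully balanced, most clearly at E16.5. Gapdh was at most 5.09 FPKM in every embryonic library and at least 980.45 FPKM in every 8-week library, which limits trust in levels set across those 2 sets.

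The 6 genes differed widely in level. Nppa was the most abundant in 22 of the 25 libraries, at 79.86 to 1708.56 FPKM, and ranked between 16 and 69 among all genes at E11.5. Nppb ranged from 1.16 to 483.4 FPKM and exceeded Nppa in D/D replicates 1, 3 and 5. Corin and the 3 receptor genes stayed below Nppa in every library, at 7.77 to 66.22 FPKM for Corin, 2.6 to 13.75 for Npr1, 3.83 to 25.2 for Npr2 and 0.42 to 21.31 for Npr3. In bulk tissue, fewer cells of a type and less RNA per cell cannot be told apart.

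**Figure D1:**
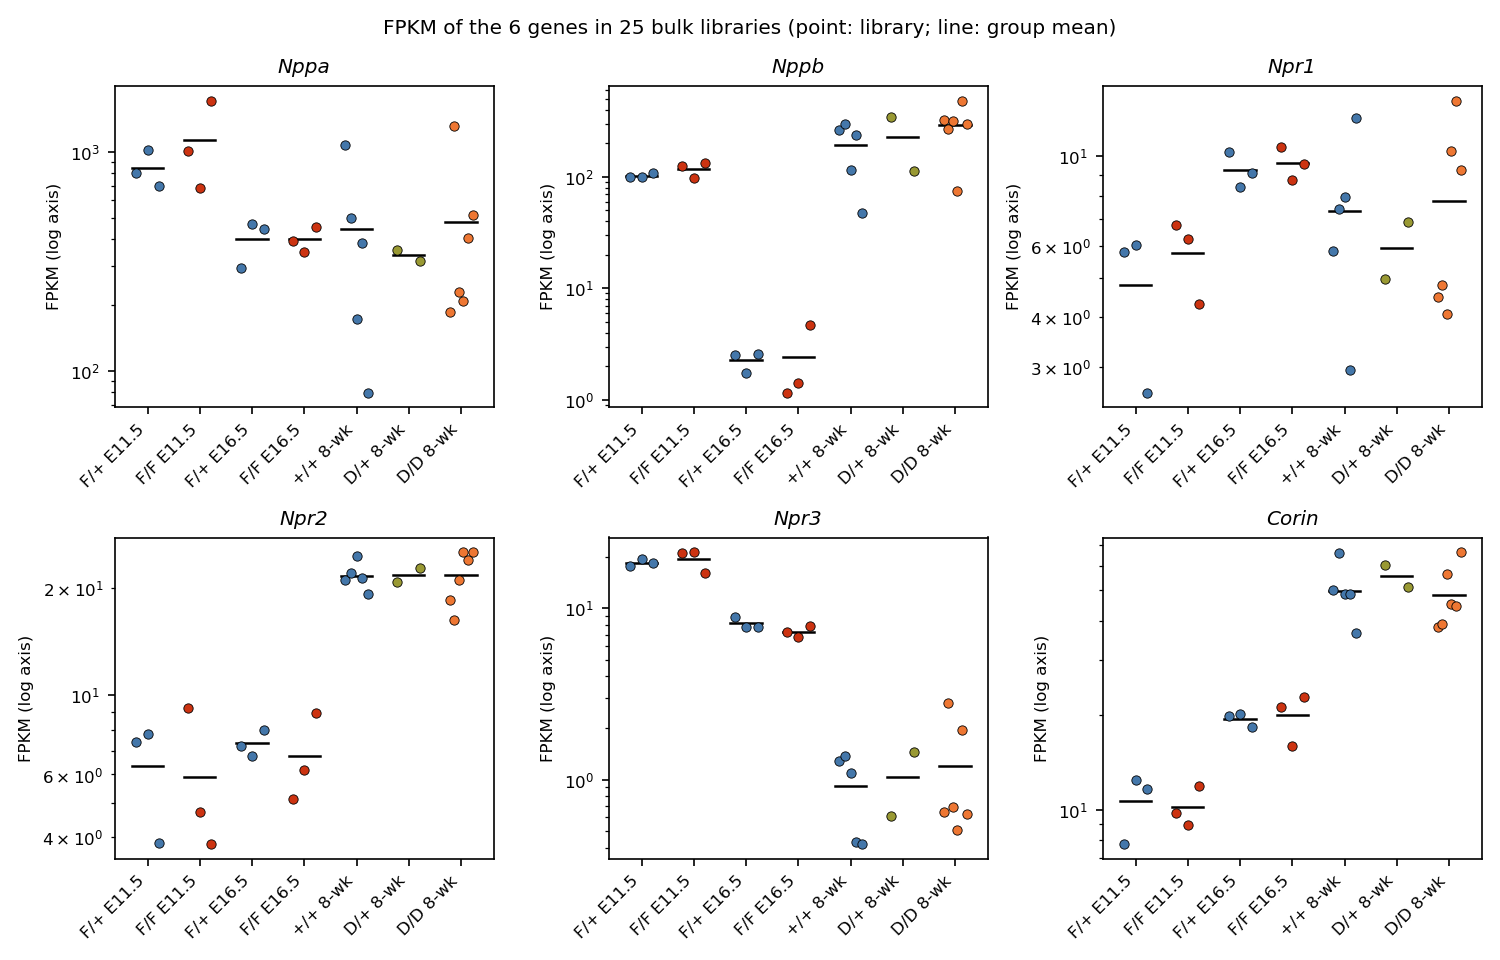
Each panel plots 1 gene's FPKM on a log axis in 7 groups of bulk libraries, with a point per library and a line at the group mean. Nppb sat between 1.16 and 4.71 FPKM in the 6 E16.5 ventricles and between 47.22 and 483.4 FPKM in all other libraries.

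The first question was how the genes stood at the 3 stages in control libraries. Of the 6 genes, 2 rose (Npr1 and Corin) and 3 fell (Nppa, Nppb and Npr3) from the F/+ heart at E11.5 to the F/+ ventricle at E16.5, and Npr2 did not pass the test. From the F/+ ventricle at E16.5 to +/+ cardiomyocytes at 8 weeks, 3 rose (Nppb, Npr2 and Corin) and 1 fell (Npr3). The test was limma on log2(FPKM + 1), a scale that understates the change of low genes, with p-values adjusted over all genes. Changes were common in both steps: 48.7% of 11405 genes passed in the first and 69.8% of 10904 in the second, so a count of members near those shares is no result about the members. The values of 5 of the 6 genes did not overlap between F/+ E11.5 and F/+ E16.5, against 60% of all genes, and those of 4 of 6 did not overlap in the later step, against 66.1%. The median log2 change of the members was -0.42 beside -0.18 for all genes in the first step, and 0.47 beside -0.34 in the second. Scaling each library by its upper quartile moved the median of all genes to 0.05 and -0.08, so small differences across stages depend on the scale. Both steps use the same 3 F/+ libraries of E16.5.

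Nppb fell furthest. It read 98.8, 100.5 and 107.8 FPKM in the F/+ hearts at E11.5 and 2.54, 1.72 and 2.55 FPKM in the F/+ ventricles at E16.5. The 2 groups did not overlap, and the lowest heart was far above the highest ventricle. The log2 change was -4.99 (SE 0.16, 95% interval -5.35 to -4.64, limma adjusted p = 9.308e-07). In +/+ cardiomyocytes at 8 weeks Nppb read 265.48, 295.03, 114.09, 237.39 and 47.22 FPKM. All 5 were above every E16.5 ventricle, the lowest being the library labelled +/+ replicate 5. The log2 change from E16.5 was 5.62 (SE 0.54, 95% interval 4.41 to 6.83, limma adjusted p = 1.252e-05), and it was 6.05 without that library. Among all genes tested, the fall lay at percentile 0.14 and the later rise at percentile 99.75 of the log2 changes.

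Nppa, the neighbour, moved less. It read 801.01, 1018.16 and 697.64 FPKM in F/+ hearts at E11.5 and 294.29, 467.62 and 443.88 FPKM in F/+ ventricles at E16.5. The groups did not overlap, and the log2 change was -1.07 (SE 0.21, 95% interval -1.54 to -0.60, limma adjusted p = 0.00305). That call was lost, with adjusted p = 0.211, when 1 spread was estimated from all 25 libraries. At 8 weeks Nppa read 1076.41, 499.77, 172.36, 384.64 and 79.86 FPKM in the 5 +/+ libraries. These values ran from below to above the whole E16.5 range, and the log2 change of -0.34 (95% interval -1.92 to 1.23) did not pass the test (limma adjusted p = 0.678). Without the library labelled +/+ replicate 5 the change was 0.14.

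The ratio of the peptide transcripts shows how far their levels parted. Nppa was 6.47 to 12.9 times Nppb in FPKM in the 6 E11.5 hearts, 96.7 to 338 times in the 6 E16.5 ventricles and 0.576 to 4.91 times in the 13 cardiomyocyte libraries. The 3 ranges did not overlap. At E16.5 Nppa still ranked between 91 and 145 among all genes while Nppb was at 1.16 to 4.71 FPKM. Of the 3 genes on the far side of Nppb, Plod1 (1.12) and Mfn2 (1.07) rose on the log2 scale between F/+ E11.5 and F/+ E16.5 (limma adjusted p = 0.00142 and 0.00051) and 2510039O18Rik did not pass. Clcn6, whose gene starts 2184 bases beyond Nppa, changed by -0.13 without passing in that step (limma adjusted p = 0.641), and Agtrap did not pass either. From E16.5 to 8 weeks Mfn2 (1.80) and Agtrap (0.58) rose and Clcn6 (-0.62) fell.

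Markers of other cells moved with these steps. The E16.5 label names ventricle, and the list of 6 genes high in atria (Sln, Myl4, Myl7, Bmp10, Nr2f1 and Nr2f2) fell in 6 of 6 from E11.5, with a median log2 change of -1.55. Its summed level was 4614 to 7414 FPKM in the E11.5 hearts, 825 to 1138 FPKM in the E16.5 ventricles and 12.5 to 890.5 FPKM in the cardiomyocytes. Myl4 and Myl7 are also genes of embryonic ventricle. In the cardiomyocytes Bmp10 was listed at 0 in 7 of 13 libraries and Sln in 1. In the later step 4 of the 6 fell and Sln gave 3.54 without passing (limma adjusted p = 0.0669). The summed level of 6 fibroblast genes was 290.6 to 455.4 FPKM at E11.5, 758.3 to 970.6 at E16.5 and 26.3 to 140.8 in the cardiomyocytes. Of the 5 fibroblast genes tested, Col1a1 (1.67) and Col1a2 (1.30) rose and Pdgfra (-2.38) and Tcf21 (-0.84) fell in the first step, and Dcn (3.53) rose while Col1a1 (-5.36), Col1a2 (-4.67) and Tcf21 (-3.09) fell in the second. The part of these shares in the members' changes was not tested.

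Corin rose at both steps. It read 7.77, 12.43 and 11.67 FPKM in F/+ hearts at E11.5, 19.86, 20.21 and 18.37 FPKM in F/+ ventricles at E16.5, and 50.04, 65.96, 48.51, 48.63 and 36.49 FPKM in +/+ cardiomyocytes. No group overlapped the next, and the library labelled +/+ replicate 5 was the lowest of its group. The log2 changes were 0.84 (SE 0.19, 95% interval 0.41 to 1.27, limma adjusted p = 0.00644) and 1.29 (SE 0.17, 95% interval 0.90 to 1.68, limma adjusted p = 0.000115).

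Npr3 went the other way at both steps. This clearance receptor read 17.59, 19.29 and 18.44 FPKM in F/+ hearts at E11.5, 8.95, 7.82 and 7.76 FPKM in F/+ ventricles at E16.5, and 1.29, 1.38, 1.09, 0.43 and 0.42 FPKM in +/+ cardiomyocytes. The 3 groups did not overlap. It fell by 1.08 on the log2 scale in the first step (SE 0.14, 95% interval -1.41 to -0.76, limma adjusted p = 0.000459) and by 2.29 in the second (SE 0.21, 95% interval -2.77 to -1.81, limma adjusted p = 1.044e-05).

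Npr2, the C-type peptide receptor, read 7.42, 7.78 and 3.86 FPKM in F/+ hearts at E11.5 and 7.23, 6.78 and 7.98 FPKM in F/+ ventricles at E16.5, and these groups overlapped (log2 change 0.23, 95% interval -0.34 to 0.79, limma adjusted p = 0.472). It then rose to 21.08, 22.03, 24.55, 21.31 and 19.28 FPKM in +/+ cardiomyocytes, all above every ventricle. The log2 change of this later step was 1.44 (SE 0.12, 95% interval 1.16 to 1.72, limma adjusted p = 5.974e-06).

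Npr1, the receptor of Nppa and Nppb, changed least firmly. It read 5.79, 6.04 and 2.6 FPKM in F/+ hearts at E11.5 and 10.28, 8.42 and 9.09 FPKM in F/+ ventricles at E16.5, without overlap. The log2 change was 0.88 (SE 0.27, 95% interval 0.263 to 1.497, limma adjusted p = 0.0259), and the call was lost when any 1 of the 3 E16.5 libraries was left out (adjusted p = 0.0588 to 0.0867). In +/+ cardiomyocytes it read 5.82, 7.42, 7.94, 2.95 and 12.43 FPKM, on both sides of the E16.5 values, and did not pass (log2 change -0.41, 95% interval -1.15 to 0.33, limma adjusted p = 0.290). Its highest +/+ value was in the library labelled +/+ replicate 5, which had the lowest +/+ value of the other 5 genes.

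Ordered by group mean over all 7 groups, neighbours in the order mostly overlapped. Nppb ran from D/D (293 ± 131 FPKM, SD, n = 6), D/+ (228 ± 163, n = 2) and +/+ (192 ± 106, n = 5) through F/F (118 ± 19.0, n = 3) and F/+ at E11.5 (102 ± 4.78, n = 3) down to F/F (2.43 ± 1.98, n = 3) and F/+ at E16.5 (2.27 ± 0.476, n = 3). Only the gap between F/+ at E11.5 and F/F at E16.5 had no overlap. Npr3 ran from F/F (19.5 ± 2.93) and F/+ at E11.5 (18.4 ± 0.850) through F/+ (8.18 ± 0.670) and F/F at E16.5 (7.32 ± 0.552) to D/D (1.21 ± 0.951), D/+ (1.03 ± 0.594) and +/+ (0.922 ± 0.466), with gaps between the 3 stages alone. Corin had the reverse order of stages, from 55.7 ± 6.13 FPKM in D/+ to 10.2 ± 1.54 in F/F at E11.5. Npr2 separated only the 3 cardiomyocyte groups, with means of 21.7 to 21.8 FPKM, from the 4 embryonic groups at 5.91 to 7.33. For Nppa and Npr1 no neighbouring groups were without overlap. Nppa ran from 1134 ± 524 FPKM in F/F at E11.5 to 337 ± 26.7 in D/+, and Npr1 from 9.64 ± 0.906 in F/F at E16.5 to 4.81 ± 1.92 in F/+ at E11.5.

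**Figure D2:**
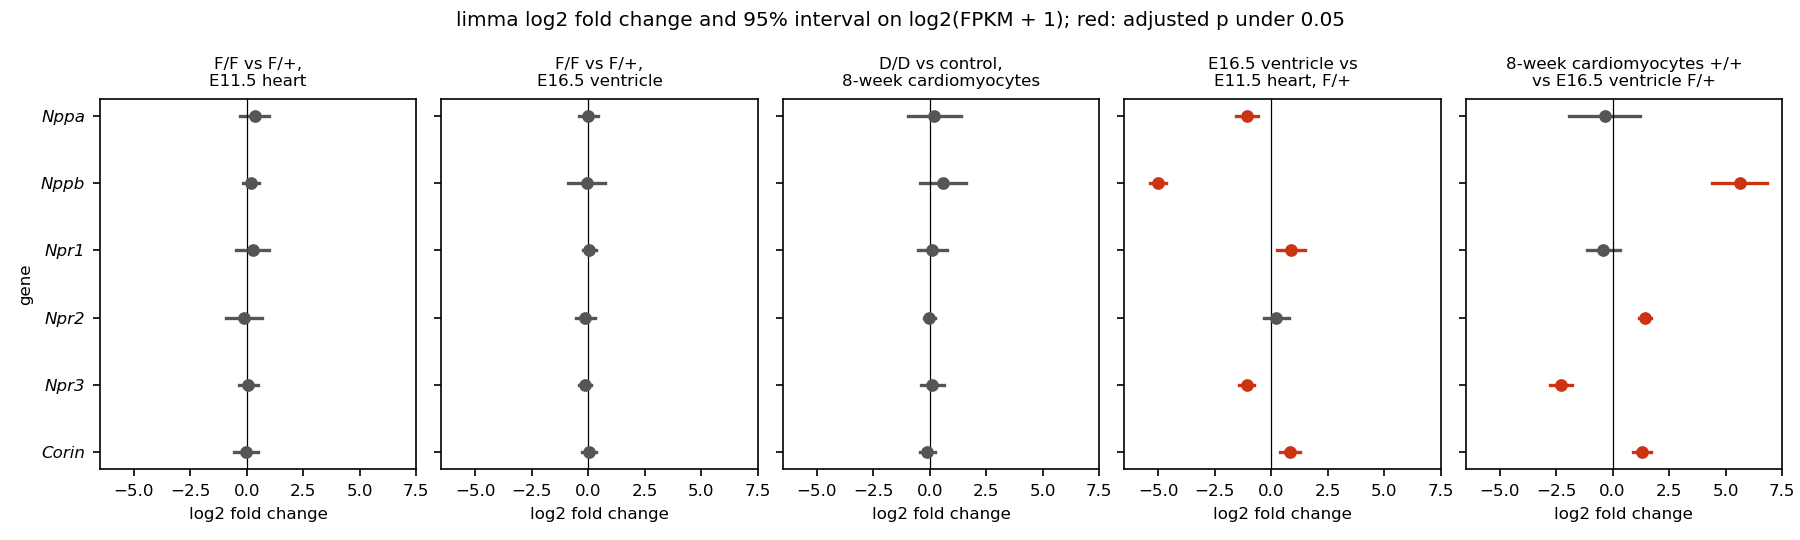
Each panel plots, for 1 comparison, the limma log2 fold change of the 6 genes (points) with its 95% interval (lines) on log2(FPKM + 1), red where the adjusted p was under 0.05. All 18 values of the 3 genotype comparisons are grey with intervals that reach 0, and 9 of the 12 values between stages are red.

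The main question of the series was what homozygous deletion in Hand2as did to the heart. The deletion was allele F in the embryos and allele D, of the distal 3' portion, at 8 weeks. For the natriuretic peptide system, 0 of the 6 genes passed the limma test at any of the 3 stages, and at no stage did the values of a member separate homozygotes from controls. The background was as low. At E11.5 0.0087% of 11491 genes passed, at E16.5 0.00935% of 10699, and at 8 weeks 0% of 10249. At an unadjusted p under 0.05, limma gave 502, 281 and 175 genes, again with 0 members. Among all genes, values did not overlap between homozygotes and controls for 9.23%, 6.78% and 0.0293%.

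At E11.5 Nppa read 1010.44, 683.33 and 1708.56 FPKM in F/F, against 801.01, 1018.16 and 697.64 FPKM in F/+. The F/F hearts held both the lowest and the highest value, and the log2 difference was 0.35 (95% interval -0.29 to 0.99). Nppb read 125.29, 96.88 and 132.9 FPKM in F/F, against 98.8, 100.5 and 107.8 FPKM in F/+, a log2 difference of 0.20 (95% interval -0.16 to 0.55). Corin differed by -0.04 (95% interval -0.58 to 0.50) and Npr1, Npr2 and Npr3 by 0.26, -0.12 and 0.07, and the limma adjusted p was 0.999 for all 6. The median log2 difference of the 6 genes was 0.13, beside 0.015 for all genes.

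At E16.5 Nppa read 391.76, 350.33 and 455.54 FPKM in F/F and lay within the F/+ range, a log2 difference of 0.01 (95% interval -0.42 to 0.44). Nppb read 1.16, 1.42 and 4.71 FPKM in F/F, with 2 values below and 1 above the F/+ ventricles, a log2 difference of -0.07 (95% interval -0.89 to 0.76). Corin read 21.25, 15.96 and 22.82 FPKM in F/F, on both sides of the F/+ values, and differed by 0.02 (95% interval -0.29 to 0.34). Npr3 differed by -0.14 (95% interval -0.40 to 0.12), Npr2 by -0.13 and Npr1 by 0.05. The limma adjusted p was 0.9999 for all 6, and the median difference was -0.03 beside 0.004 for all genes. The E11.5 and E16.5 effects were also compared directly: 0 of the 6 genes passed (limma adjusted p = 0.999), beside 0.00875% of 11423 genes, and 0 members had an unadjusted p under 0.05. The stage difference in the effect was -0.34 for Nppa (95% interval -1.19 to 0.51) and -0.26 for Nppb (95% interval -1.15 to 0.62).

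At 8 weeks Nppa and Nppb were more spread between libraries than at the embryonic stages. In D/D, Nppb read 322.02, 268.16, 315.06, 74.43, 483.4 and 295.07 FPKM. In the controls it read 265.48, 295.03, 114.09, 237.39 and 47.22 FPKM (+/+) and 342.72 and 112.8 FPKM (D/+). D/D replicate 4 was low at 74.43 FPKM and the other 5 D/D libraries lay between 268.16 and 483.4 FPKM, while the controls spread from 47.22 to 342.72 FPKM, so the groups overlapped. The log2 difference of 0.60 (SE 0.48, 95% interval -0.41 to 1.62, limma adjusted p = 0.9999) lay at percentile 99.34 of all genes but within the spread of the libraries. It moved between 0.30 and 0.96 as single libraries were left out. Within the 11 libraries that clustered together, mean Nppb was 293 FPKM in 5 D/D and 228 FPKM in 6 controls.

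Nppa in D/D read 185.43, 1315.49, 230.35, 208.13, 405.0 and 515.17 FPKM. In the controls it read 1076.41, 499.77, 172.36, 384.64 and 79.86 FPKM (+/+) and 356.33 and 318.58 FPKM (D/+). A single library stood high in each genotype, D/D replicate 2 and +/+ replicate 1, and the medians were 318 FPKM in D/D and 356 FPKM in the controls. The log2 difference was 0.21 (95% interval -0.96 to 1.38). That log2 difference was -0.12 without the library labelled +/+ replicate 5 and -0.16 without D/D replicate 2. Within the 11 libraries that clustered together, mean Nppa was 468.9 FPKM in D/D and 468 FPKM in the controls. Each of these means holds the single high library of its group. The means on log2(FPKM + 1) were 8.426 in D/D and 8.645 in the controls.

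The 2 libraries with the highest Nppa were also the 2 with the highest summed level of the 6 atrial genes. D/D replicate 2 had 890.5 FPKM of that list, with Sln at 205.06 and Bmp10 at 33.88 FPKM, and +/+ replicate 1 had 768 FPKM, with Sln at 210.25 and Bmp10 at 3.27 FPKM. The 2 libraries with the lowest Nppa, +/+ replicate 3 and the library labelled +/+ replicate 5, had the lowest list levels, 12.54 and 12.5 FPKM, with Sln at 0.33 and 0 and Bmp10 listed at 0 in both. Nr2f1 and Nr2f2 of the list went the other way, at 0.48 and 1.68 FPKM in D/D replicate 2 and 0.61 and 2.01 in +/+ replicate 1, against 1.11 and 4.11 in +/+ replicate 3 and 2.0 and 5.73 in the library labelled +/+ replicate 5. The remaining 9 libraries had 28.56 to 237.34 FPKM of the list. The list ranged from 28.56 to 890.5 FPKM (median 155) in D/D and from 12.5 to 768 FPKM (median 134) in the controls. The part of atrial cells in these Nppa values was not tested.

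**Figure D3:**
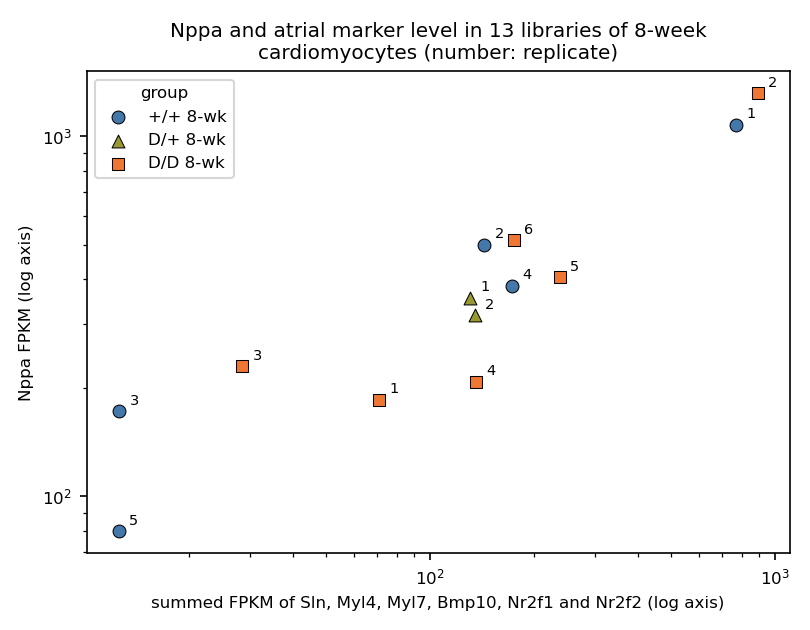
Each point is 1 of 13 libraries of 8-week cardiomyocytes, with the summed FPKM of the 6 atrial genes on the horizontal axis and the FPKM of Nppa on the vertical axis, both logarithmic, and the replicate number beside it. D/D replicate 2 and +/+ replicate 1 are highest on both axes, and +/+ replicate 3 and the library labelled +/+ replicate 5 lowest on both.

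The values of Corin and of the 3 receptor genes overlapped between D/D and controls at 8 weeks. In D/D, Corin ranged from 38.11 to 66.22 FPKM (median 44.96) and from 36.49 to 65.96 FPKM in the controls. Npr2 ranged from 16.22 to 25.2 FPKM (median 22.5) in D/D and from 19.28 to 24.55 FPKM in the controls. Their log2 differences were -0.10 (95% interval -0.44 to 0.24) and -0.02 (95% interval -0.27 to 0.24). Npr1 ranged from 4.08 to 13.75 FPKM in D/D and from 2.95 to 12.43 in the controls, and Npr3 from 0.51 to 2.81 FPKM in D/D and from 0.42 to 1.45 in the controls. Within the 11 libraries that clustered together, mean Corin was 44.7 FPKM in 5 D/D and 54.1 FPKM in 6 controls, while D/D replicate 6 was at 66.22 and the library labelled +/+ replicate 5 at 36.49 FPKM. Npr2 within the 11 was at 20.97 and 22.1 FPKM. The limma adjusted p was 0.9999 for all 6 genes, and the median log2 difference was 0.11 beside -0.008 for all genes. The +/+ libraries serve in this comparison and in the one between stages.

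Other genes of the pathway were taken from a list of 20 that covers processing and clearance enzymes, phosphodiesterases and cGMP effectors. Of its 13, 12 and 10 genes tested at E11.5, E16.5 and 8 weeks, 0 passed limma between genotypes. Between F/+ E11.5 and F/+ E16.5, 2 of 14 rose and 3 fell, beside 48.7% of all genes, with a median log2 change of -0.39 beside -0.18 for all genes. Rgs2, a regulator of G-protein signalling that cGMP-dependent kinase acts on, rose by 1.91, and Pde2a, a cGMP-stimulated phosphodiesterase, by 1.36. The peptide-degrading enzyme Ide fell by 1.87, the soluble guanylate cyclase subunit Gucy1b3 by 0.97 and the kinase substrate Mrvi1 by 0.68 (limma adjusted p = 0.000267 to 0.0291 over the 5 genes). From F/+ E16.5 to +/+ cardiomyocytes, 4 of 11 rose (Ide 1.69, Pde3a 1.08, Pde2a 1.05 and Mrvi1 0.47) and 4 fell (Vasp -2.24, Gucy1a3 -2.20, Rgs2 -0.79 and Prkg1 -0.60), beside 69.8% of all genes, with a median of -0.30 beside -0.34 for all genes.

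A list of 20 transcription factors known to act on Nppa or Nppb gave 0 genes past limma in the genotype comparisons (20, 20 and 19 tested). Hand2, the neighbour of the deleted gene, is among them. Between F/+ E11.5 and F/+ E16.5, 7 of 20 rose and 6 fell, beside 48.7% of all genes. The largest changes among the called genes were those of Hey2 (1.88), Mef2a (1.58), Irx4 (1.27), Tbx2 (-1.27), Myocd (1.14) and Hand1 (-1.13). From E16.5 to 8 weeks 0 rose and 10 of 20 fell, beside 69.8% of all genes, led by Hey2 (-4.44), Hand1 (-3.33), Tbx20 (-2.51), Hey1 (-1.19), Mef2a (-1.16) and Mef2c (-1.02). A link between these changes and the peptide genes was not tested.

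Over the 25 libraries, which share the stage and tissue differences, the genes most like each member in log2(FPKM + 1) were the following. For Nppa they were Dkk3, Myl7 and Slc7a7 (Pearson r 0.868, 0.834 and 0.817), and for Nppb Oat, Smpx and Ints4 (0.973, 0.965 and 0.962). Corin was closest to Coro6, Pygb and Pde4dip (0.982, 0.978 and 0.978). Npr1 was closest to Erg, Pcdh1 and Arhgef15 (0.908, 0.890 and 0.887), Npr2 to Fitm2, Kcnd3 and Wfs1 (0.974, 0.966 and 0.964), and Npr3 to Plvap, Cdh11 and Peg3 (0.989, 0.989 and 0.987). Among the members themselves, r was -0.95 for Npr3 and Corin, -0.91 for Npr2 and Npr3, 0.90 for Npr2 and Corin, and 0.14 for Nppa and Nppb, as a description of libraries that differ mainly in stage.

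The single-cell libraries show which E11.5 heart cells held these transcripts. They hold unique molecular identifiers (UMIs), counts of captured 3' transcript ends: 38302758 UMIs in 2563 +/+ barcodes and 51432290 in 3469 F/F barcodes, from preparations aimed at about 5000 cells each. After removing barcodes with fewer than 500 genes and likely doublets, 2503 +/+ and 3368 F/F cells remained. The median depth was 13369 and 13403 UMIs per barcode, and 18 barcodes occurred in both libraries. Cells were clustered without the 6 members and named from marker genes. Cells led by Bmp10, Gja5, Irx3, Cited1 and Smpx are called trabecular cardiomyocyte-like (195 +/+ and 221 F/F cells), and a second ventricular cluster, in which 2 of those 5 genes led, is called other ventricular (214 and 438). The others were outflow tract cardiomyocyte-like (138 and 198), atrial cardiomyocyte-like (35 and 74, also with Shox2 of the sinus venosus), endothelial and endocardial-like (188 and 279), epicardial-like (146 and 250), mesenchymal-like (456 and 502), erythroid-like (956 and 1240), immune-like (63 and 60) and megakaryocyte-like (14 and 17) cells. A hepatocyte-like cluster held 13 +/+ and 0 F/F cells, and 85 and 89 cells stayed unnamed, most of them in a cluster led by Rgs5. The genotypes had 1 library each and were therefore not tested against each other, and the 95% intervals below cover counting error only. Levels are given as CPM, the UMIs of a gene scaled to the same UMI total in every class.

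Nppa and Nppb were muscle transcripts with their highest level in trabecular cardiomyocyte-like cells. These made up 7.79% of +/+ and 6.56% of F/F cells and held 83.1% and 84.5% of all Nppa UMIs and 69.6% and 63.4% of all Nppb UMIs. In +/+ Nppa was at 1883 CPM (6618 UMIs) in trabecular, 328 CPM (1030 UMIs) in other ventricular, 256 CPM (104 UMIs) in atrial and 6.72 CPM (14 UMIs) in outflow tract cardiomyocyte-like cells. Erythroid-like cells, which are taken to lack it, had 5.21 CPM (72 UMIs). That level serves as the reference, and whether it is free RNA was not tested. The outflow tract muscle was near this level, and endothelial, epicardial, mesenchymal and immune-like cells were at 2.57 to 6.15 CPM. Nppb in +/+ was at 505 CPM in trabecular, 194 CPM in other ventricular, 46.5 CPM in outflow tract and 22.2 CPM (9 UMIs) in atrial cardiomyocyte-like cells, against 1.30 CPM in erythroid-like cells. In outflow tract cells Nppb and not Nppa was above the erythroid level, in F/F too (Nppb 19.3 against 1.70 CPM, Nppa 13.3 against 13.4 CPM). Few outflow tract cells carried that Nppb: after thinning, 1 cell held 10 of the 31 UMIs in +/+ and 1 held 8 of the 17 in F/F.

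**Figure D4:**
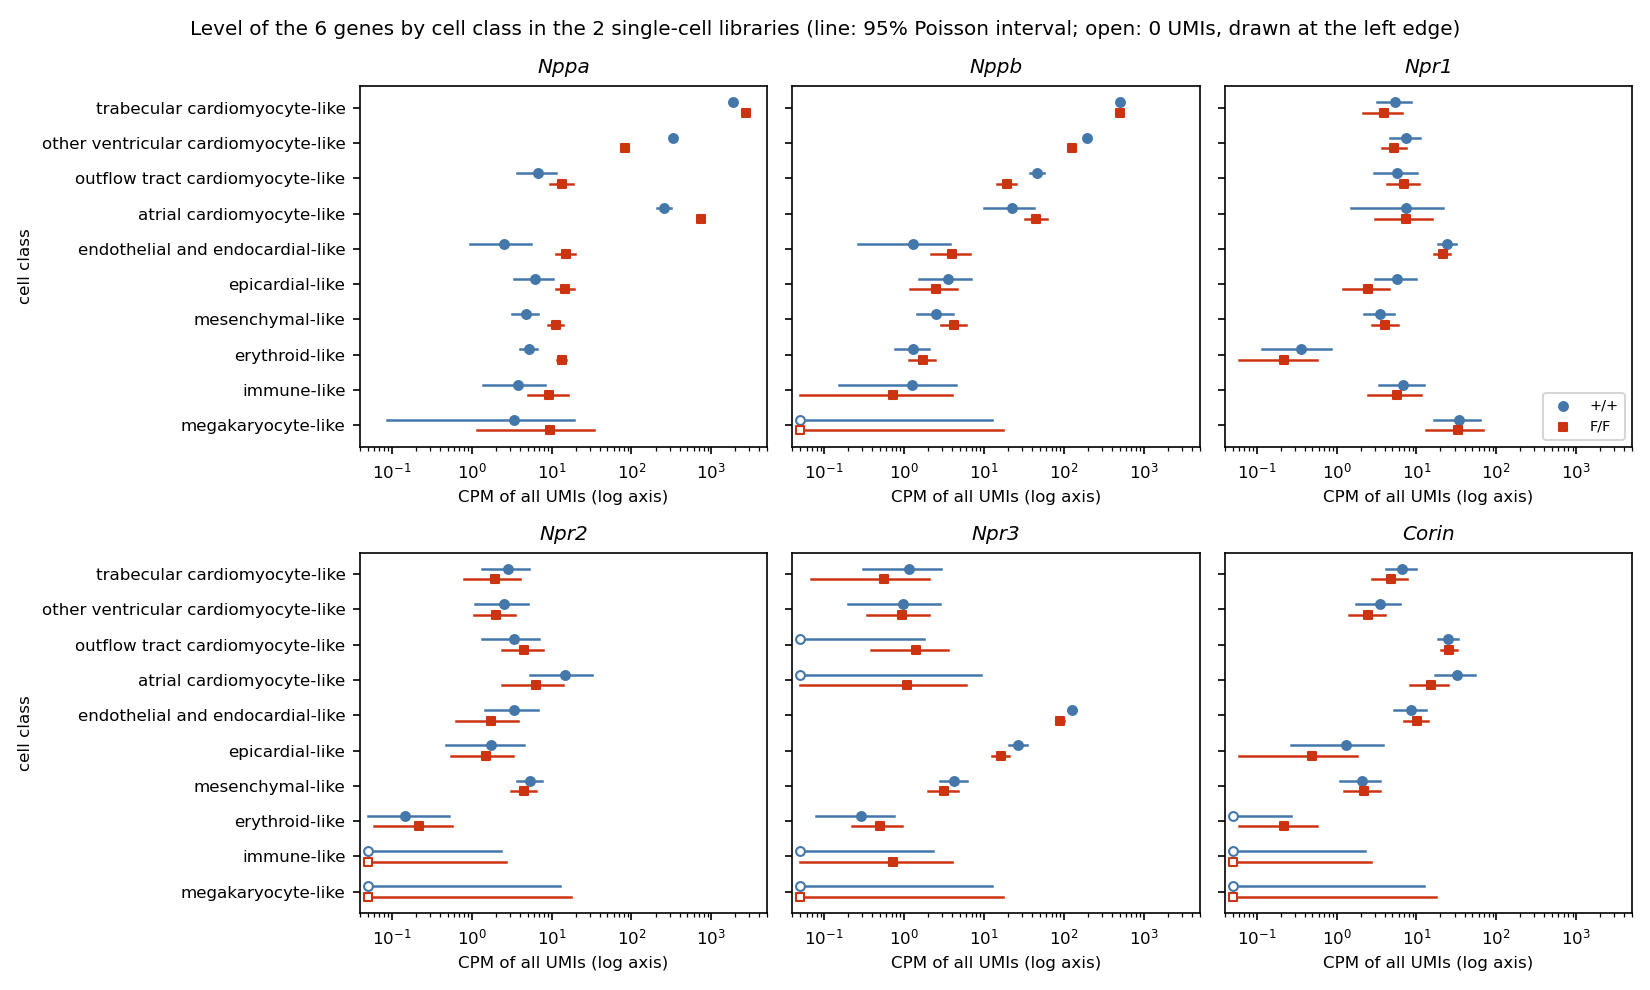
Each panel plots 1 gene's CPM on a log axis in 10 cell classes (rows) of the +/+ (circles) and F/F (squares) single-cell library, with 95% Poisson intervals as lines and open symbols for 0 UMIs. Nppa and Nppb are highest in trabecular cardiomyocyte-like cells, and Npr3 stands out in endothelial and endocardial-like cells at 128 and 89.0 CPM.

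The peptide transcripts were unevenly spread among trabecular cells. After each cell was thinned to 5000 UMIs, 53.6% of 192 +/+ and 62.6% of 214 F/F trabecular cells had an Nppa UMI (67.2% and 73.3% unthinned). In erythroid-like cells the shares were 2.74% and 7.49% (7.11% and 17.1% unthinned), at median depths of 10906 and 11652 UMIs against 17820 and 16303 in trabecular cells. At least 10 thinned Nppa UMIs were found in 40 of the 192 +/+ cells (20.8%, exact 95% interval 15.3 to 27.3) and 66 of the 214 F/F cells (30.8%, 24.7 to 37.5). The 20 highest of the +/+ and the 22 highest of the F/F trabecular cells held 65.6% and 61.0% of the Nppa UMIs of the class, and the highest cell had 257 of 5000 UMIs in +/+ and 184 in F/F. Nppb had a UMI in 46.4% and 47.7% of the thinned trabecular cells, and in 0.80% and 0.68% of erythroid-like cells. Both peptides were seen together in 33.9% and 39.3% of trabecular cells, Nppa alone in 19.8% and 23.4%, Nppb alone in 12.5% and 8.41%, and neither in 33.9% and 29.0%. At this depth a cell without a UMI is not shown to lack the transcript.

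**Figure D5:**
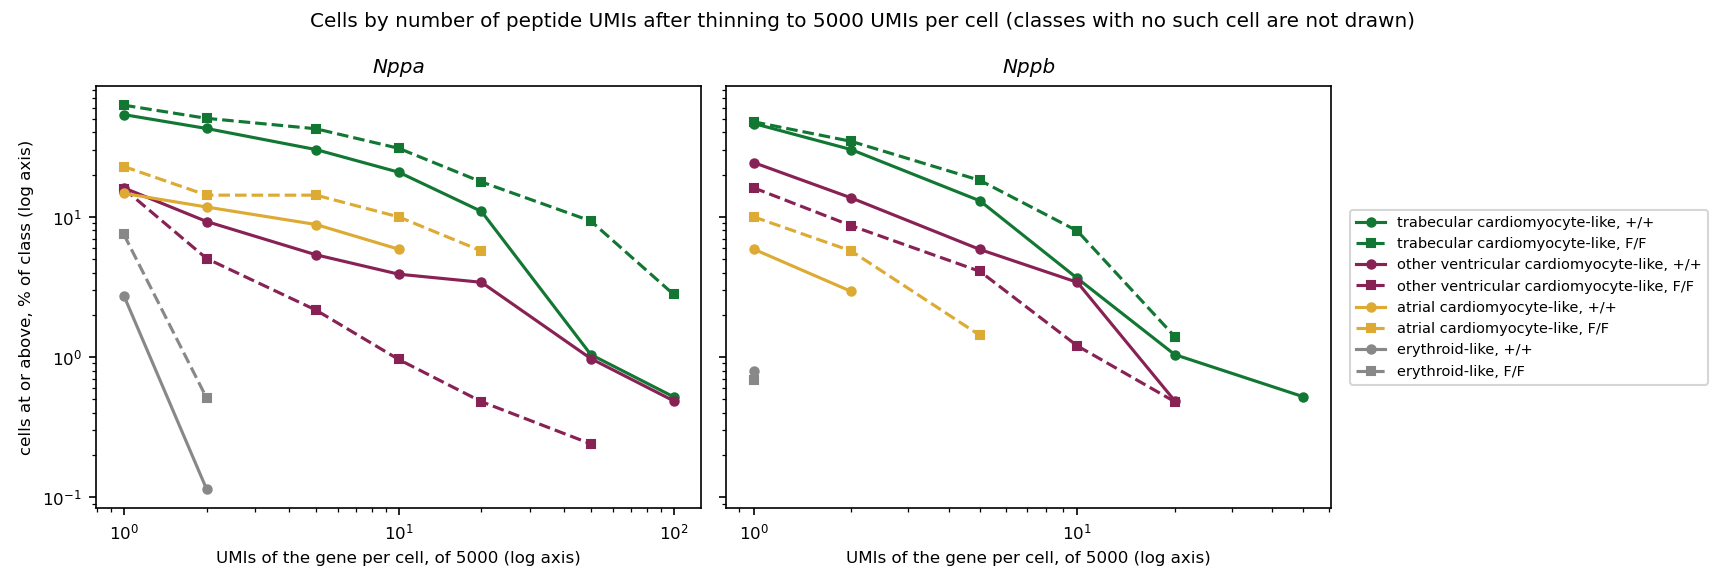
For Nppa (left) and Nppb (right), the lines give the percentage of cells of a class with at least the number of UMIs on the horizontal axis, after thinning to 5000 UMIs per cell, on log axes, solid for +/+ and dashed for F/F. In trabecular cardiomyocyte-like cells 20.8% of +/+ and 30.8% of F/F cells reached 10 Nppa UMIs, and no erythroid-like cell did.

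Between the 2 single-cell libraries the peptides differed little over all cells. Nppa was at 215 CPM in +/+ and 231 CPM in F/F (log2 ratio 0.10, interval 0.06 to 0.14), and Nppb at 68.8 and 56.6 CPM (-0.28, interval -0.36 to -0.20). None of the members with 100 UMIs in each library passed 1.5-fold over all cells, where 1.59% of 10384 genes did.

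Within classes the differences in Nppa had opposite directions. In trabecular cells Nppa was at 1883 CPM in +/+ and 2721 CPM in F/F (9619 UMIs), a log2 ratio of 0.53 (interval 0.49 to 0.58) and percentile 99.81 of the genes there, of which 0.79% passed 1.5-fold. In other ventricular cells it was at 328 CPM in +/+ and 83.8 CPM in F/F (538 UMIs), a log2 ratio of -1.97 (interval -2.12 to -1.82), where 2.18% of genes passed 1.5-fold. Atrial cardiomyocyte-like cells had 256 CPM in +/+ and 737 CPM in F/F (104 and 687 UMIs in 35 and 74 cells), a log2 ratio of 1.53 (interval 1.23 to 1.84), where 2.85% passed. Few atrial cells carried it: after thinning, 4 of 34 +/+ cells held 96.9% of 32 UMIs and 7 of 70 F/F cells held 84.3% of 191. Nppb was at 505 and 501 CPM in trabecular cells (-0.01, interval -0.11 to 0.08) and at 194 and 127 CPM in other ventricular cells (-0.61, interval -0.77 to -0.46). Of the 6 pairs of a member and a class that could be compared, 3 passed 1.5-fold: Nppa in other ventricular and in atrial cells, and Nppb in other ventricular cells.

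These class values depended on where the border between the ventricular clusters fell. At a coarser clustering both ventricular clusters merged and the Nppa difference in trabecular-named cells turned to -0.16. With both classes joined in the main clustering, a step chosen after the data were seen, Nppa was at 1150 CPM in 409 +/+ cells and 1021 CPM in 659 F/F cells, a log2 ratio of -0.17 (interval -0.21 to -0.13). Nppb was then at 358 and 259 CPM (-0.46, interval -0.55 to -0.38). In the other ventricular class few cells carried the Nppa: 8 of 205 +/+ and 4 of 416 F/F cells had at least 10 thinned UMIs, and the 21 and 42 highest cells held 96.9% and 89.9% of its UMIs. The share of its cells with any Nppa UMI after thinning was 16.1% and 15.9% (28.0% and 29.0% unthinned).

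The Nppa level in erythroid-like cells also differed between the libraries, at 5.21 CPM in +/+ and 13.4 CPM in F/F (72 and 245 UMIs, log2 ratio 1.37, interval 0.98 to 1.77). The erythroid-like clusters were not alike: the one led by Hbb-bs and Hbb-bt was at 6.18 and 6.24 CPM (191 and 132 cells). Other classes at a low level had 4.75 and 11.3 CPM in mesenchymal-like, 6.15 and 14.7 CPM in epicardial-like and 2.57 and 15.2 CPM in endothelial and endocardial-like cells. No free-RNA level was measured, so whether these low values are background or expression was not tested. Nppb in erythroid-like cells was at 1.30 and 1.70 CPM.

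Corin had few UMIs, 153 in +/+ and 194 in F/F. Outflow tract cardiomyocyte-like cells held 34.0% and 38.1% of them, at 24.9 and 25.9 CPM (52 and 74 UMIs). Atrial cardiomyocyte-like cells were at 32.01 and 15.03 CPM from 13 and 14 UMIs, with intervals of 17.1 to 54.7 and 8.22 to 25.2 CPM that overlap. The unnamed Rgs5-led cluster was at 19.9 and 18.2 CPM and endothelial and endocardial-like cells at 8.57 and 10.1 CPM. Trabecular cells, the class with most of the Nppa, were at 6.54 and 4.81 CPM of Corin, and erythroid-like cells at 0 and 0.22 CPM, where 0 UMIs allow up to 0.217 CPM (3 UMIs). Its intervals in outflow tract and atrial muscle lay above those in trabecular cells in both libraries (4.15 to 9.82 and 2.80 to 7.70 CPM).

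Npr3 was concentrated in endothelial and endocardial-like cells, which held 73.1% of its 409 +/+ UMIs and 73.5% of its 422 F/F UMIs. The level there was 128 CPM in +/+ and 89.0 CPM in F/F (299 and 310 UMIs), a log2 ratio of -0.52 (interval -0.76 to -0.29) that stayed under 1.5-fold, where 2.78% of genes passed. Within that class the cluster led by Emcn and Plvap was at 199 and 153 CPM, and the one led by Stmn2 and Wnt4 at 40.3 and 27.2 CPM. In the Emcn and Plvap cluster 55.7% and 45.1% of cells had an Npr3 UMI after thinning and 77.8% and 78.8% unthinned. Epicardial-like cells followed at 26.8 and 16.2 CPM (61 and 65 UMIs). The 4 cardiomyocyte classes were at 1.40 CPM or less, near the 0.29 and 0.49 CPM of erythroid-like cells.

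Npr1 and Npr2 were sparse, with 182 and 213 UMIs of Npr1 and 87 and 91 of Npr2 in all. Endothelial and endocardial-like cells held 31.3% and 34.7% of the Npr1 UMIs, at 24.4 and 21.3 CPM. The few megakaryocyte-like cells were at 34.2 and 33.2 CPM from 10 and 7 UMIs. The 4 cardiomyocyte classes had 3.96 to 7.51 CPM of Npr1, above the 0.36 and 0.22 CPM of erythroid-like cells. Mesenchymal-like cells held 39.1% and 36.3% of the Npr2 UMIs, at 5.38 and 4.49 CPM, and atrial cardiomyocyte-like cells were at 14.8 and 6.44 CPM from 6 UMIs each. The Npr2 intervals of these classes overlap (atrial 5.42 to 32.2 and mesenchymal 3.72 to 7.52 CPM in +/+), so their order is not settled at this depth.

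Across 16 clusters summed over both libraries, genes among the closest to each member in log2(CPM + 1) were Gja5 and Ntn1 for Nppa (Pearson r 0.952 and 0.946), Doc2g, Mb and Abcc9 for Nppb (0.960, 0.959 and 0.958), and Cxxc4, Sparcl1 and Inha for Corin (0.920, 0.902 and 0.901). For the receptors they were Rab11a, Bahd1 and Dnm2 for Npr1 (0.971, 0.948 and 0.939), Tbx20, Gpr153 and Rab3b for Npr2 (0.954, 0.953 and 0.947), and B4galt4, Tmem100 and Gpr182 for Npr3 (0.951, 0.947 and 0.942). The clusters share libraries and differ in depth, and the closest of 10384 genes are high by selection. Gja5 is 1 of the trabecular markers that named the class.

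Of the pathway list, the precursor-cleaving enzyme Furin was at 67.1 and 59.6 CPM in mesenchymal-like and 63.8 and 45.2 CPM in outflow tract cardiomyocyte-like cells of +/+ and F/F. The related enzyme Pcsk6, which activates corin, was at 37.3 and 29.6 CPM in other ventricular cells. Epicardial-like cells had 22.4 and 17.7 CPM of Mme, the peptide-degrading enzyme neprilysin, and 203 and 164 CPM of the soluble guanylate cyclase subunit Gucy1a3.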

How the data were processed

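Bulk values are FPKM per gene, deposited by the authors in 1 table of 25 libraries. The unit was inferred from the values, no counts or depth come with it, and strand use in counting is not given in the sources used here. CASAVA, TopHat2 2.0.11, TopHat and mm9 are named for bulk, and Cell Ranger and mm10 for single cells, per the submitters' processing notes. Single-cell values are UMI counts deposited by the authors for both libraries together, and barcode endings assigned cells to libraries. 0 columns belonged to samples outside the series.

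Genes whose mean in a fit reached 1 FPKM were tested with limma 3.58.1 (R 4.3.3, intensity trend) on log2(FPKM + 1), with Benjamini-Hochberg adjusted p under 0.05. Each genotype comparison used its own libraries, and +/+ and D/+ formed 1 control group at 8 weeks. On simulated data with 200 changed genes, changes of 1 and 2 log2 units were recovered in 29% and 72% at E11.5, 79% and 90% at E16.5, 75% and 94% at 8 weeks, 43% and 87% from E11.5 to E16.5, and 61% and 99% from E16.5 to 8 weeks.

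Single cells were processed with scanpy 1.11.5 (Python 3.11.15): at least 500 genes, 2000 variable genes less the members, 30 components, 15 neighbours and Leiden resolution 1. The automatic doublet threshold marked only 2 and 20 barcodes, so the highest-scoring barcodes, in a number set from the size of each library, were removed (52 and 96). Ratios were read for genes with 100 UMIs in each library. Exact Poisson and Clopper-Pearson intervals at 95% (scipy 1.17.1) cover counting error only. Figures used matplotlib 3.10.9.

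The members and lists were chosen with earlier results of these data known. Named by rule were the 6 members, up to 6 called genes of largest change per list, the 3 genes on each side of Nppa and Nppb, and the 3 genes of highest r per member. Some of the genes this rule names are not reported here. Alternatives covered pseudocount, filter, scaling, a Y-linked covariate, 1 fit of all libraries, the replicate block, single libraries left out, clustering settings and doublets. Promoters came from RefSeq (GRCm38.p6), where all 6 members had an entry.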

Additional observations from a re-analysis of the deposited data

Results flagged for a closer look

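Nppa in D/D replicate 2 at 8 weeks, at 1315.49 FPKM, stood far above the other 5 D/D libraries: its gap to the next library made up 0.708 of the range of the group, over the 0.625 that Dixon's test allows for 6 libraries. It was the only one among 12 pairs of a member and a group of 4 to 10 libraries. Chance flags about 1 in 20 groups if the values are normally distributed. The test used FPKM and was not run on log2(FPKM + 1). On that scale D/D replicate 2 was at 10.36, the next D/D library at 9.01 and the lowest at 7.54.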

How the results depend on the processing

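No depth comes with the FPKM, and 2 or 3 libraries per group limit most intervals. Between genotypes 0 members passed limma under any setting or left-out library. Genes called of all tested became 24 (main 1) with 1 fit of all libraries and 2 with the replicate block at E11.5, 2 with a pseudocount of 0.1 and 3 with the Y-linked covariate at E16.5 (main 1), and 2, 3 and 6 with that pseudocount, no filter and 1 fit for the stage difference of the effect (main 1). The cause was not tested.

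Signs that turned, all without passing: upper-quartile scaling gave -0.0016 for Npr3 at E11.5, -0.014 for Nppa and -0.00097 for Corin at E16.5, and 0.021 for Npr2 in the stage difference of the effect. The Y-linked covariate gave -0.24, 0.19 and -0.029 for Nppa, Nppb and Corin at E16.5 and 0.012 for Npr2 at 8 weeks. The deviations of same-numbered libraries correlated at -0.036, -0.017 and 0.082 at E11.5, -0.081, 0.042 and -0.43 at E16.5 and 0.53, 0.42, -0.039, -0.11 and 0.21 at 8 weeks, over 0.1 in 3 of 5 pairs at 8 weeks and in none of the embryonic pairs, so the numbers were not taken to pair them. The replicate block gave -0.020 for Npr1 at 8 weeks and 0.20 for Nppa from E16.5 to 8 weeks, and changed no call of a member.

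With single libraries left out, genes called ranged from 1 to 2 at E11.5, 0 to 2 at E16.5 and 1 to 9 for the stage difference of the effect, and from 4002 to 6409 and 6654 to 8536 between stages. Values that crossed 0 ranged, at E11.5, from -0.049 to 0.43 (Npr1), -0.44 to 0.10 (Npr2) and -0.23 to 0.081 (Corin). At E16.5 they ranged from -0.20 to 0.13 (Nppa), -0.51 to 0.20 (Nppb), -0.0090 to 0.12 (Npr1), -0.33 to 0.022 (Npr2) and -0.075 to 0.17 (Corin). At 8 weeks they ranged from -0.16 to 0.50 (Nppa), -0.061 to 0.25 (Npr1) and -0.060 to 0.061 (Npr2). For the stage difference of the effect they ranged from -0.65 to 0.0071 (Nppa), -0.70 to 0.00029 (Nppb), -0.38 to 0.10 (Npr1), -0.23 to 0.30 (Npr2) and -0.058 to 0.25 (Corin). Between stages they ranged from -0.048 to 0.38 (Npr2, first step) and -0.79 to 0.14 (Nppa, second step).

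Between stages the calls of Nppb, Npr3 and Corin in both steps and of Npr2 in the second held under every setting. Npr1 in the first step also lost its call without the filter (limma adjusted p = 0.0521) and with 1 fit of all libraries (0.0688). Of 98 single-cell values under other settings, 65 stayed within the counting interval, 31 moved beyond it and 2 turned sign. Leiden resolution 0.5 left 1 pair of a member and a class past 1.5-fold (main 3), with Nppa in trabecular cells at -0.16. It gave no other ventricular class. Clustering on the members too gave 0.0038 for Nppb in trabecular cells. Among classes of at least 20 cells in each library, the class with the highest mean CPM was the same for 6 of 6 members under every setting.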
